A study of Mus musculus with 12 samples.

Results

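The immunoglobulin heavy chain variable genes (Ighv genes) were examined in 2 mouse lymphoma lines, 3s and 30s, before and after interferon β (IFNβ). The genes were taken as every probe set whose single platform gene symbol begins with Ighv, keeping per gene the probe set with the highest mean over the 12 arrays. This gave 113 genes, each with 1 probe set, of 30098 genes with a probe set of 1 symbol. Both lines came from spleen lymphomas of C57BL6/CBA mice that carry Mx1Cre, the Eμ-Myc transgene and 1 inactive p53 allele (p53+/-). The paper calls the 3s line itself p53 null, and reports that most established lines had lost the intact p53 allele. Eμ-Myc drives Myc from the immunoglobulin heavy chain enhancer, and Mx1Cre produces Cre recombinase when interferon signals. The 3s line has floxed Runx1 (Rx1fl/fl), which Cre can excise, and the 30s line has wild type Runx1 (Rx1WT/WT), which it cannot. Cells received 50 U/ml IFNβ or vehicle (PBS with bovine serum albumin) for 72 h and grew for 6 more days before RNA extraction. Each of the 4 groups held 3 cultures, measured on 1 Affymetrix MTA 1.0 array each. Each genotype is represented by 1 line, so line and Runx1 genotype cannot be told apart, and p-values measure the spread between cultures of a line. Neither the labels nor the methods say how old the mice were or whether a line is 1 clone.

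A B cell makes its antibody heavy chain from gene pieces that are cut and joined on chromosome 12 by the Rag recombinase. A D segment is first joined to a J segment, and 1 of the many V segments is then joined to that DJ unit. The chosen V exon is spliced to a constant region, Ighm in an immature cell, and its transcript becomes very abundant. Unrearranged V segments can also be transcribed at low level, as germline transcripts. V genes fall into families by sequence, and the number after Ighv names the family. Family 1 is the largest in the mouse and lies mostly in the part of the locus far from the D segments, whereas families 2 and 5 lie nearest to them. Close relatives within a family can share probe sequence, so the reading of a member may include transcripts of its relatives.

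The arrays were comparable in general terms. The median spread (SD) within groups over all genes was 0.0689 to 0.0714 on the log2 scale, and no array was a copy of another. The cells read as B lineage, with 8 of 9 markers measured. All 8 had a mean over 12 arrays above 8 and every group mean above 7. Little was read of other lineages, since 0 of 9 myeloid, 0 of 8 T and NK and 0 of 5 stromal markers had a mean above 8. Of 5 plasma cell markers 1 did, Irf4 at 12.1. The 1 measured erythroid marker, Alas2, had a mean of 6.74. The summed level of the myeloid markers was 7.86 to 7.95 in 3s and 7.98 to 7.99 in 30s cells with vehicle, and that of the T and NK markers 7.87 to 7.91 and 8.0 to 8.04, while 1 marker of each list was lower in 3s cells (Itgam -0.25, Klrb1c -0.28). Their part in the differences between the lines was not tested. Runx1, the gene targeted in 3s cells, read 7.78, 7.92 and 8.0 with vehicle and 7.69, 7.93 and 8.03 after IFNβ in 3s cells, with no call (change -0.02, limma adjusted p = 0.99). In 30s cells it read 8.38, 8.15 and 8.19 with vehicle and 8.34, 8.43 and 8.20 after IFNβ. Whether its probes lie in the deleted part is not known from these files, so this value does not check the excision. The labels' genotype entry gives floxed Runx1 for every IFNβ sample and wild type Runx1 for every vehicle sample of both lines, so the lines were taken from the titles and the Runx1 genotype of each from the treatment protocol. In arrays of bulk cultures, fewer cells of a type and less RNA per cell cannot be told apart.

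The 113 genes covered 15 of the 16 mouse Ighv families that RefSeq annotates on chromosome 12, and all 113 matched a RefSeq symbol. RefSeq lists 183 Ighv genes there, and 70 had no member. Family 1 held 61 of the members, family 5 held 9, families 2 and 8 held 8 each, family 3 held 6, family 6 held 5 and family 14 held 4. The other 8 families had 1 or 2 members, and family 7 had no member. RefSeq calls 110 members V segments and 3 pseudogenes, which are Ighv2-1, Ighv1-2 and Ighv1-30.

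Most members were dim. On the log2 scale of the arrays, the mean over 12 arrays ran from 3.45 to 16.7 with a median of 5.67, close to the 5.47 of all genes. The 23 background control probe sets, which match no mouse sequence, had means from 2.62 to 5.76. Of the members, 28 read above every one of these controls on all 12 arrays, and 41 read below the highest of them on all 12. Means above 8 were reached by 13 members, or 11.5%, against 27.5% of all genes. These 13 came from families 1, 2 and 10, with 10 from family 1. Levels of different probe sets are given as a description, since probes differ in their affinity.

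The brightest member was Ighv1-2, a pseudogene of family 1. It read 16.69, 16.74 and 16.71 in 3s cells with vehicle and 16.70, 16.57 and 16.62 after IFNβ. In 30s cells it read 16.70, 16.72 and 16.93 with vehicle and 16.85, 16.68 and 16.69 after IFNβ. The 4 groups overlapped, and the lines differed by -0.07 (3s minus 30s, 95% interval -0.22 to 0.08, limma adjusted p = 0.53). The next in level were Ighv1-69 at 14.2 and Ighv1-52 at 13.6, both V segments of family 1 and both higher in 30s cells.

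The vehicle arrays of the lines were compared to find the V genes that read higher in each. With vehicle, 17 members were lower in 3s than in 30s cells and 1 was higher, by limma across all genes at an adjusted p under 0.05. The count lower was 6 with the methods' t-test. The count higher was 5 with median centring, 3 with cyclic loess or quantile normalisation, 2 with only the vehicle arrays fitted, 0 with dim genes left out, and up to 3 without a single array, the 3 being reached without 3s vehicle replicate 1 or 30s vehicle replicate 2. The 17 are 15.04% of the members, where 10.6% of all genes were lower in 3s cells. The 1 higher is 0.885% of the members, where 14.3% of all genes were higher. Over the members the median difference was -0.10, against -0.01 over all genes, and 83 members lay below 0 and 30 above. Of the 17, 15 belong to family 1, 1 to family 2 and 1 to family 3, and every one is annotated as a V segment. For 16 of them, which had passed the test on these same arrays, the 3 arrays of one line all lay outside those of the other, and Ighv1-11 was the exception. The 3s arrays lay wholly below the 30s arrays for 25.7% of the members, against 18.9% of all genes. They lay wholly above for 3.54% of the members, against 19.2% of all genes.

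The leading V gene of 30s cells was Ighv3-6, the member with the largest difference between the lines. In 3s cells it read 6.24, 5.57 and 6.13 with vehicle and 5.86, 5.45 and 5.84 after IFNβ. In 30s cells it read 8.40, 8.72 and 8.78 with vehicle and 8.67, 8.31 and 8.85 after IFNβ. Every 30s array lay above every 3s array by over 2 log2 units. Ighv3-6 passed the test with vehicle (log2 difference -2.65, SE 0.19, 95% interval -3.07 to -2.23, limma adjusted p = 1.23e-06). On the arrays after IFNβ the difference was -2.89 (SE 0.19, limma adjusted p = 4.26e-07). The means of these arrays did not enter the choice of the leading gene, but their spread entered the shared fit. They are cultures of the same 2 lines. The 3s readings lay near the background, above the highest control of their array on 2 of 3 arrays in each condition. With readings below that control raised to it, Ighv3-6 was at least 4.85-fold higher in 30s cells with vehicle and at least 6.94-fold higher after IFNβ. The other 5 measured members of family 3 were not called, and the median over the family was -0.07.

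Ighv1-59, a V segment of family 1, came next. It read 6.54, 6.29 and 6.93 in 3s cells with vehicle and 8.43, 7.84 and 7.95 in 30s cells. It was higher in 30s cells (-1.48, SE 0.20, adjusted p = 0.000173), by 2.80-fold as read, or 2.55-fold with the 1 array of 3s vehicle below its highest control raised to that control, and 3.38-fold higher after IFNβ.

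Ighv1-50 was among the brightest members as well as among those that differed most. It read 12.59, 12.45 and 12.72 in 3s cells with vehicle and 14.09, 13.80 and 13.99 in 30s cells. The difference was -1.37 (SE 0.09, adjusted p = 6.32e-07), or 2.59-fold, and the same -1.37 was measured after IFNβ. Ighv1-52, which also read high in both lines, was at 13.14, 13.14 and 13.18 in 3s cells and at 14.04, 13.94 and 13.99 in 30s cells (-0.84, SE 0.04, adjusted p = 1.09e-07). Neither line had arrays that reached the other's values for these genes.

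Ighv1-62-1 read 9.80, 10.03 and 9.49 in 3s cells and 10.45, 10.94 and 10.90 in 30s cells, a difference of -0.99 (SE 0.16, adjusted p = 0.00074). Its call was lost with the methods' t-test (adjusted p = 0.0593). Ighv1-61 read 6.73, 6.60 and 6.53 against 7.54, 7.41 and 7.52, a difference of -0.87 (SE 0.11, adjusted p = 7.27e-05). These 6 genes were the members over 1.5-fold higher in 30s cells. Ighv1-69 followed with 13.97 to 14.03 against 14.46, 14.35 and 14.56 (-0.46, SE 0.06, adjusted p = 0.00012).

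**Figure D1:**
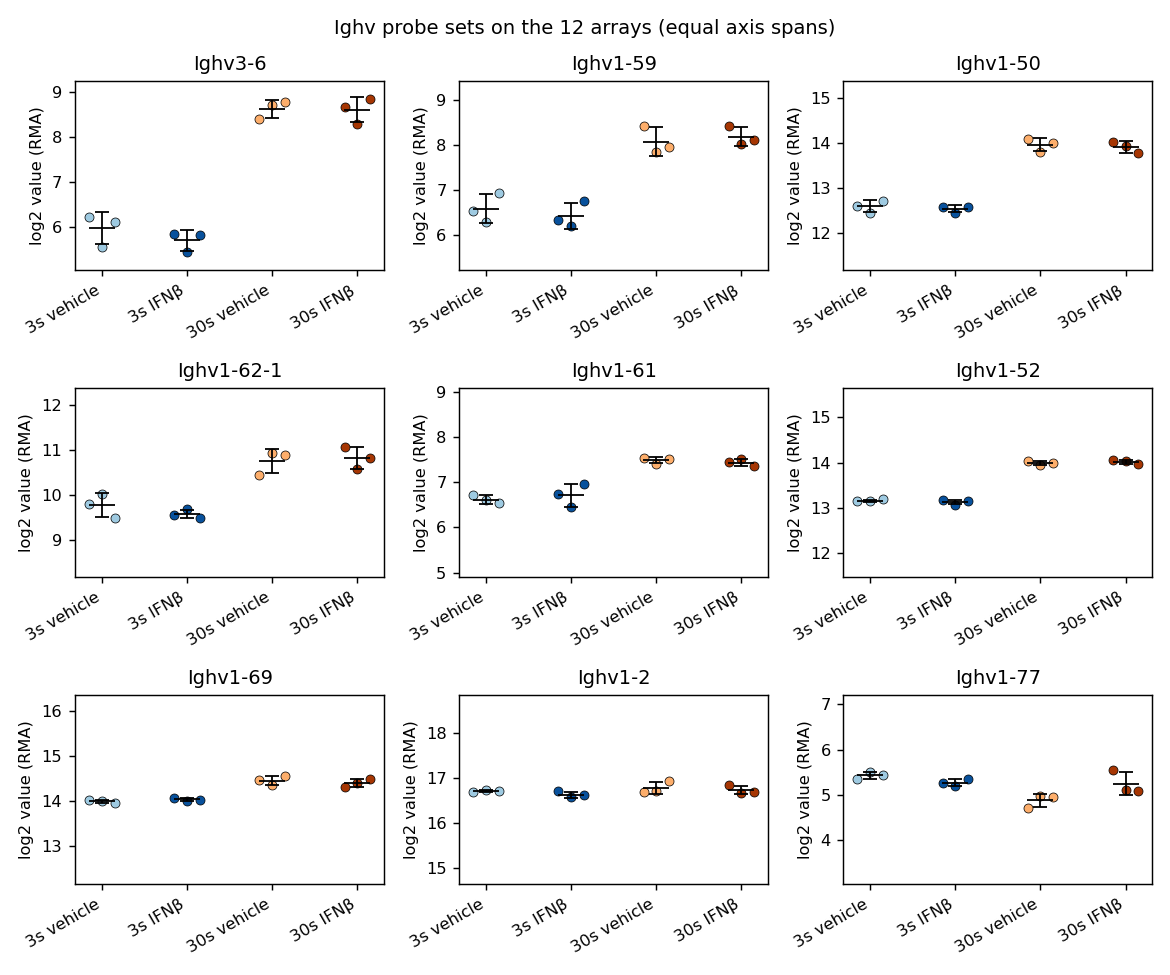
Log2 RMA value of 9 Ighv probe sets (y axes, equal spans) on each of the 12 arrays in the 4 groups (x axis), with the group mean and SD (bars, n = 3). Ighv3-6 lies near 6 in 3s cells and above 8 in 30s cells on every array, whereas Ighv1-2 lies between 16.6 and 16.9 in both lines, and Ighv1-77 differs between the lines with vehicle and overlaps after IFNβ.

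The remaining 10 of the 17 differed by less, between -0.20 for Ighv1-64 and -0.42 for Ighv1-11. Among them were Ighv2-3 (-0.39), Ighv1-53 (-0.34), Ighv1-70 (-0.33), Ighv1-56 (-0.30) and Ighv1-55 (-0.26). Ighv1-24 and Ighv1-81 read below the highest background control on all 12 arrays. Ighv1-9, Ighv1-11 and Ighv1-70 exceeded that control on 2 of 3 arrays of 3s vehicle. With the reading below it raised to it, they were 1.01-fold, 1.22-fold and 1.06-fold higher in 30s cells with vehicle. Removing single arrays ended several of these calls. Ighv1-56 stayed called in 4 of the 12 fits that each left out 1 array, with an adjusted p of up to 0.151 over the settings tried, and was lost without 8 different arrays. Ighv2-3 stayed called in 7 and was lost without 3s vehicle replicate 1 or 3 or any of the 3 arrays of 30s vehicle (adjusted p up to 0.111). Ighv1-11 stayed called in 8 and was lost without 3s vehicle replicate 2 or 3 or 30s vehicle replicate 1 or 3 (up to 0.25). Ighv1-53 was lost without 3s vehicle replicate 2 or 3 (up to 0.215), and Ighv1-81 without 3s vehicle replicate 1 or 30s vehicle replicate 2 (up to 0.141). Ighv3-6, Ighv1-50, Ighv1-52, Ighv1-59, Ighv1-61 and Ighv1-69 stayed called in all 12 and in the other 10 settings tried.

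**Figure D2:**
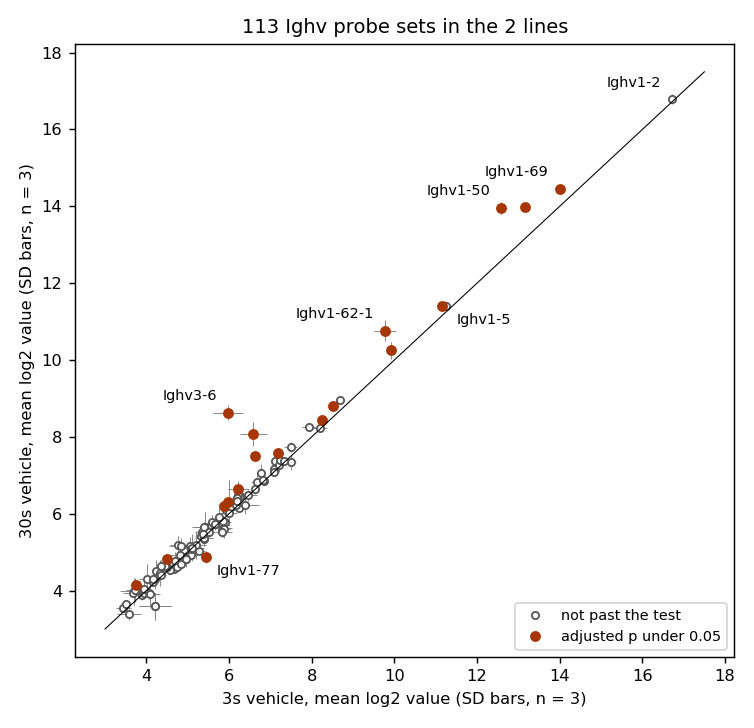
Mean log2 RMA value of the 113 probe sets in 3s cells (x axis) and 30s cells (y axis) with vehicle, with SD bars (n = 3) and the line of equal values; filled points passed the limma test at an adjusted p under 0.05. Ighv3-6 lies farthest from the line, with 17 filled points above it and 1, Ighv1-77, below.

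The same comparison was made on the arrays after IFNβ. There, 16 members were lower in 3s cells (14.2% of the members, against 13.0% of all genes) and 1 was higher (against 13.9% of all genes). On these arrays, 3s cells lay wholly below the other line for 22.1% of the members, against 20.6% of all genes. The 17 genes lower with vehicle had been chosen for a difference between the same lines, so their counts here are a description. Of the 17, 9 were called again, 17 kept the sign and 14 had arrays that did not overlap. The 9 were Ighv3-6, Ighv1-9, Ighv1-50, Ighv1-52, Ighv1-59, Ighv1-61, Ighv1-62-1, Ighv1-69 and Ighv1-70. Among those called after IFNβ and not with vehicle was Ighv2-5, at -0.51 (adjusted p = 0.00329), and it had been at -0.25 with vehicle (adjusted p = 0.119).

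No member was called higher in 3s cells in both conditions. The one higher with vehicle was Ighv1-77, a V segment of family 1 in the distal part of the locus. By the rule for the leading gene it was that of 3s cells. It read 5.35, 5.51 and 5.44 in 3s cells and 4.70, 4.97 and 4.95 in 30s cells, a difference of 0.56 (SE 0.11, adjusted p = 0.00324). These values are near the background, since Ighv1-77 exceeded every control on 0 of the 6 vehicle arrays and on 1 of all 12. After IFNβ it read 5.25, 5.19 and 5.34 in 3s cells and 5.54, 5.10 and 5.08 in 30s cells, and the groups overlapped (0.02, adjusted p = 0.93). The member higher in 3s cells after IFNβ was Ighv9-3, which read 3.58, 3.61 and 3.49 against 3.07, 3.18 and 3.42 (0.34, adjusted p = 0.0288). It was below the highest background control on all 12 arrays, and with vehicle it lay at -0.11. None of the 13 members with a mean above 8 was called higher in 3s cells in either condition. With vehicle 8 of them were called lower, against 9 of the 100 other members and 10.6% of all genes.

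Along the locus the members that differed lay unevenly. In RefSeq order, the stretch from Ighv1-50 to Ighv1-70 held 21 members, with a median difference of -0.27. Of these 21, 11 were lower in 3s cells with vehicle, where 10.6% of all genes were lower. The other 92 members held 6 lower and 1 higher, with a median of -0.08. The stretch also held 8 of the 13 members with a mean above 8. With dim genes left out, 7053 of 13271 genes were called in either direction. With all genes tested, 14.3% were called higher in 3s cells and 10.6% lower. The stretch was chosen after its values were seen, and no test was made of it. Ighv3-6 lies outside it, nearer to the D segments, with Ighv13-1 and Ighv9-4 as its neighbours among the members. After IFNβ, 8 members of the stretch and 8 of the others were lower in 3s cells, where 13.0% of all genes were lower. Within the stretch 17 members lay below 0 with vehicle and 4 above, none of the 4 called, which were Ighv1-62-2 (0.63, adjusted p = 0.0614), Ighv1-66 (0.31, adjusted p = 0.0579), Ighv1-58 (0.27) and Ighv1-67 (0.18). Ighv1-66 was called higher with each of the 3 scalings and Ighv1-62-2 with median centring. The probe set of Ighv1-62-2 and that of Ighv1-71 gave the same value on all 12 arrays, so they count as 1 measurement.

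**Figure D3:**
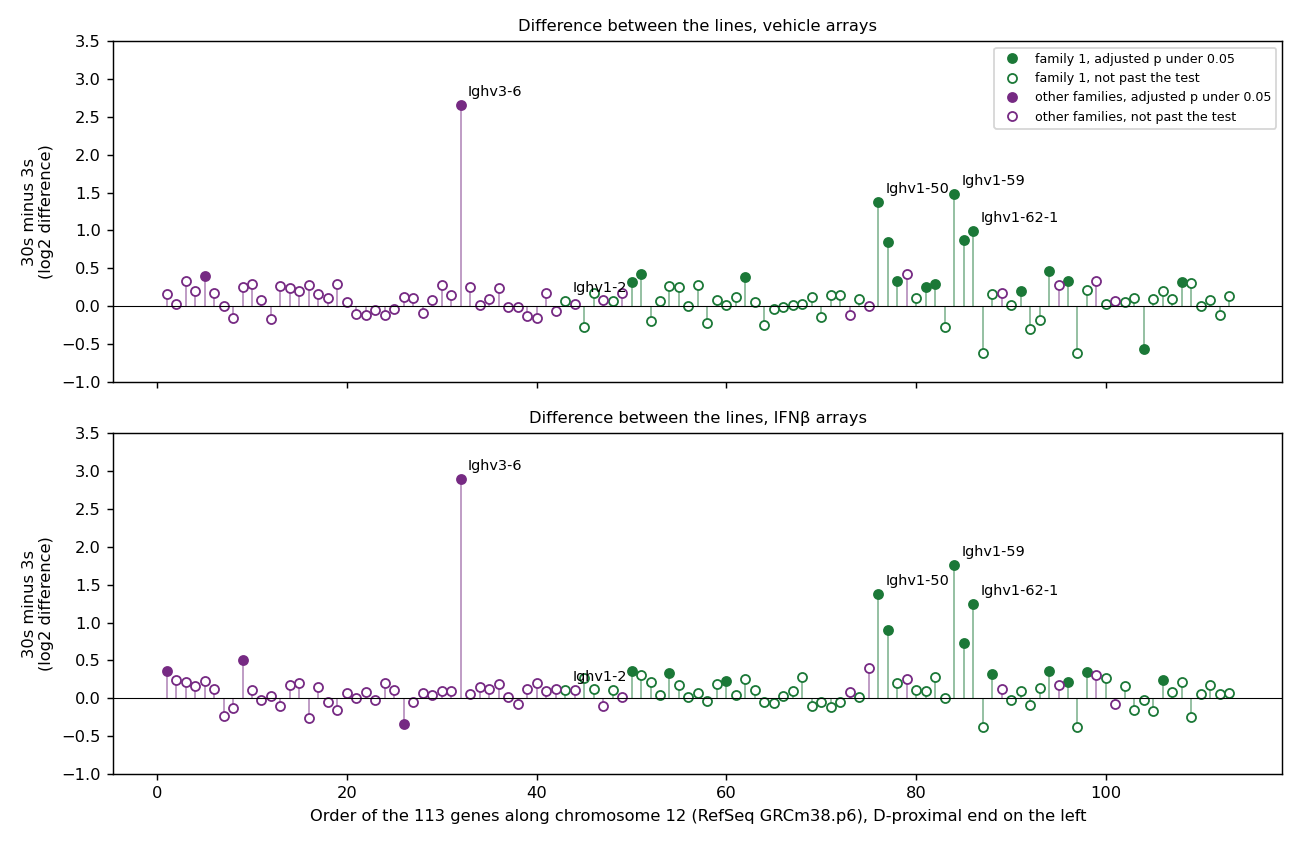
Log2 difference of 30s minus 3s cells (y axes) for the 113 members in RefSeq order along chromosome 12 (x axis, D-proximal end on the left), with vehicle (top) and after IFNβ (bottom); filled points passed the limma test. Ighv3-6 is the highest point in both panels, followed by Ighv1-59, Ighv1-50 and Ighv1-62-1, which lie together farther from the D-proximal end.

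By family, the differences with vehicle were small outside the named genes. Family 1 had a median of -0.10, with 46 of 61 members below 0, 15 lower and 1 higher. In family 2 all 8 members lay below 0, with a median of -0.24 and 1 lower, but 6 of 8 lay below 0 on the arrays after IFNβ. Family 5 had a median of -0.18 with 7 of 9 below 0, and family 8 had -0.12 with 5 of 8 below 0, and neither had a call. In family 6, 4 of 5 lay above 0 and none was called, but 1 of 5 lay above 0 on the arrays after IFNβ. The direction of the medians of families 1 and 2 was the same with median centring, cyclic loess and quantile normalisation.

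Genes whose pattern over the 12 arrays was most like that of Ighv3-6 were sought by Pearson correlation among the members. They were Ighv1-52 (0.98), Ighv1-50 (0.98), Ighv1-59 (0.96), Ighv1-69 (0.95), Ighv1-61 (0.95) and Ighv1-62-1 (0.94). The arrays fall into 2 lines, so these values restate the difference between the lines. Within the 6 arrays of a line the values scattered. Ighv1-52 had 0.68 in 3s and -0.61 in 30s cells, and Ighv1-50 had 0.85 and -0.53. For Ighv1-77 the most alike were Ighv1-30 (0.79), Ighv1-42 (0.64), Ighv1-62-2 and Ighv1-71 (0.57 each), Ighv1-67 (0.53) and Ighv1-58 (0.47). The correlations are a description over arrays that share a line.

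After IFNβ no member changed by the test in either line. In 3s cells 0 of 113 were called by limma and 0 by the methods' t-test, where limma called 1.02% of all genes, and 6 had an unadjusted p under 0.05, or 5.31% against 8.05% of all genes. In 30s cells 0 were called by either test, where limma called 1.15% of all genes, and 10 had an unadjusted p under 0.05, or 8.85% against 13.5%. Changes ran from -0.39 to 0.56 in 3s cells with a median of -0.02, and from -0.33 to 0.37 in 30s cells with a median of -0.03. The 95% intervals reached a median of 0.215 to each side, and they lay within plus or minus 1 log2 unit for 113 members in both lines and within 0.5 for 94 in 3s and 97 in 30s cells. Changes over 2-fold in the reading were therefore outside the interval of every member measured, and smaller ones were not all detectable with 3 cultures. For the 41 members below the highest background control on all 12 arrays, the interval describes the reading. It cannot limit a change in a transcript that is not seen above background.

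Of the genes named above, Ighv3-6 changed by -0.27 in 3s cells (95% interval -0.69 to 0.16, adjusted p = 0.84) and by -0.02 in 30s cells (-0.44 to 0.40). Ighv1-50 changed by -0.05 in both lines, and Ighv1-52 by -0.03 and 0.02. Ighv1-2 changed by -0.08 and -0.05, but it read near the top of the scale, where the highest value on any array was 17.8, and whether its signal was saturated was not tested. Among the 13 members with a mean above 8, changes lay between -0.19 and 0.12 in 3s cells and between -0.26 and 0.06 in 30s cells.

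The largest rise in 3s cells was that of Ighv5-17, a family 5 member that read 3.55, 3.47 and 4.08 with vehicle and 4.17, 4.39 and 4.23 after IFNβ (0.56, adjusted p = 0.39). It read below the highest background control on all 12 arrays. Ighv4-1, the one member of family 4, was at 0.37 (adjusted p = 0.43), and Ighv6-6 was at -0.39 (adjusted p = 0.54). In 30s cells the lowest adjusted p was that of Ighv1-22 (0.25, adjusted p = 0.132). Ighv1-77 was at 0.37 there (adjusted p = 0.164) and Ighv9-3 at -0.33 (adjusted p = 0.157).

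**Figure D4:**
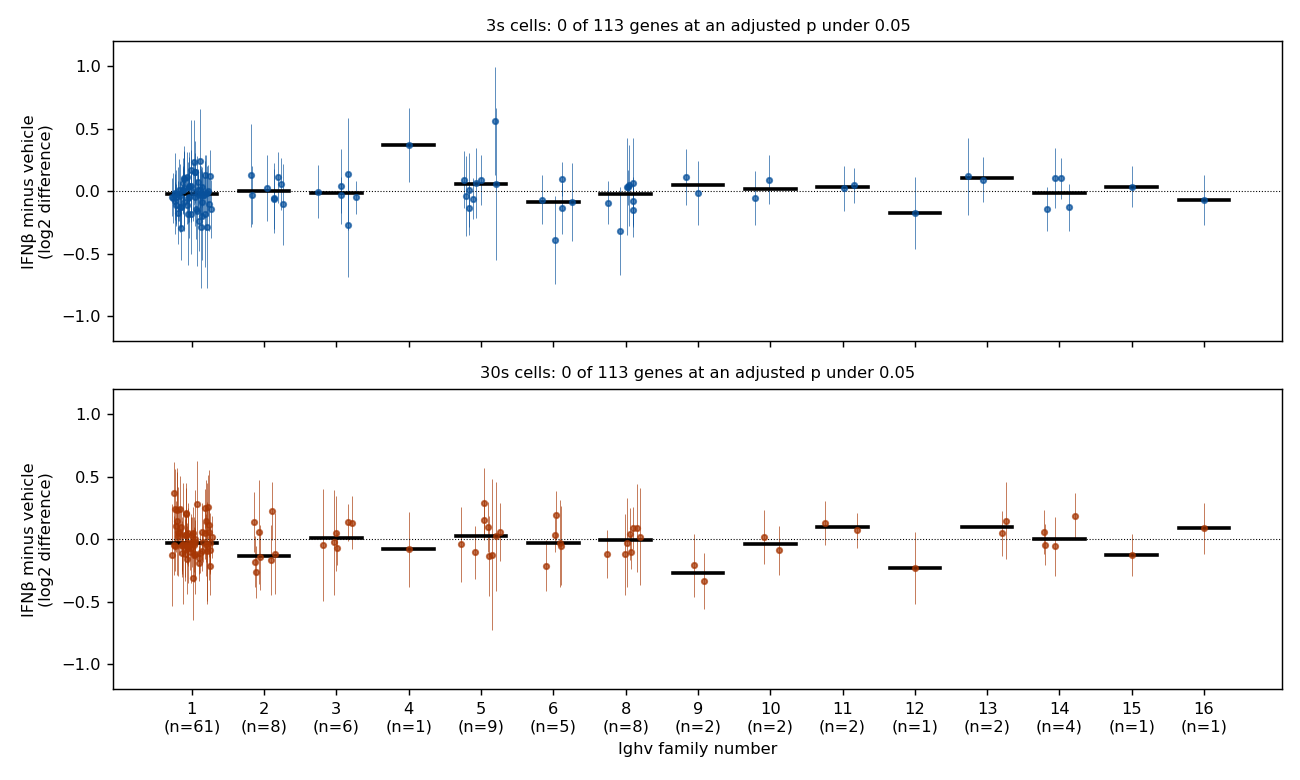
Log2 change after IFNβ (y axes) of each member by Ighv family (x axis, number of members below), in 3s cells (top) and 30s cells (bottom), with 95% intervals as thin bars and the family median as a thick line. In both lines 0 of 113 members passed the limma test, and the medians of the families with 4 or more members lie between -0.13 and 0.06.

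The effects of IFNβ in the 2 lines were also compared directly. The difference of the effects (3s minus 30s) was called for 0 of 113 members by limma and by the methods' t-test, where limma called 1.02% of all genes. An unadjusted p under 0.05 by limma was reached by 8 members, or 7.08% against 11.2% of all genes. The differences ran from -0.55 for Ighv1-4 to 0.54 for Ighv1-82, with a median of 0.00 and intervals that reached a median of 0.304 to each side. For Ighv3-6 it was -0.24 (95% interval -0.84 to 0.35), and for Ighv1-50 it was 0.00 (-0.28 to 0.29). For Ighv1-77 it was -0.54 (adjusted p = 0.196).

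Other genes of heavy chain assembly were read beside the V genes. Ighm, the constant region of the first heavy chain made, had a mean of 15.1 in 3s and 15.4 in 30s cells with vehicle (-0.30, adjusted p = 0.000241), and it changed by 0.01 and 0.03 after IFNβ. Ighg1, Ighg2b and Ighe, the constant regions of switched heavy chains, had group means between 4.49 and 5.08 and no call. Of 16 listed D, J and neighbouring genes 3 were measured. One is Adam6b, a gene between the V and D segments, whose mean was 7.47 in 3s and 8.14 in 30s cells with vehicle (-0.66, adjusted p = 0.00843). Its difference after IFNβ in 30s cells was 0.64 (adjusted p = 0.0818). Adam6a was lower in 3s cells (-0.21, adjusted p = 0.0235) at group means of 3.61 to 3.85, below the highest control on every array, and Ighd6-1 was not called.

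The surrogate light chain pairs with a newly made heavy chain before a light chain exists. Igll1, its λ5 chain, had a mean of 5.11 in 3s and 9.78 in 30s cells with vehicle (adjusted p = 1.45e-08). In 3s cells it read below the highest background control on all 3 vehicle arrays, so it was at least 13.7-fold higher in 30s cells, taking that control as the floor. It rose in 30s cells after IFNβ by 0.92 (adjusted p = 0.049). Vpreb1 and Vpreb2, which code for its other chain, were lower in 3s cells, at -0.71 (adjusted p = 0.000102) and -0.74 (adjusted p = 0.00296). Cd79a and Cd79b, the signalling chains of the receptor, were higher in 3s cells by 0.52 and 0.65.

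Rag2 codes for 1 of the subunits of the Rag recombinase and rose in 3s cells after IFNβ. Its mean went from 7.17 to 9.71 in 3s cells (2.54, adjusted p = 3.67e-06), and in 30s cells from 5.58 to 5.14 (-0.44, adjusted p = 0.128), where it was below the highest control on all 6 arrays. Among 8 measured genes of V(D)J recombination, 1 rose and 1 fell in 3s cells, or 25% called against 1.02% of all genes, and 0 were called in 30s cells. This list too was chosen with earlier results of these data known, so its share is a description. Prkdc, a kinase of the joining step, fell by 0.39 in 3s cells (adjusted p = 0.0034).

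Factors that act on V promoters and on the heavy chain locus were read as well. Pou2f1, which binds the octamer found in V promoters, had group means near 9.7 and changed by -0.01 and -0.02 after IFNβ. Its coactivator Pou2af1 changed by 0.03 and 0.02, and was higher in 3s cells by 0.18 (adjusted p = 0.0314). Of 15 listed regulators of the locus, 2 rose and 1 fell in 3s cells, or 20% called against 1.02% of all genes, and 1 fell in 30s cells, or 6.67% against 1.15%. The list was chosen with earlier results of these data known, so these shares are a description. Brwd1, a chromatin reader, went up by 1.85 in 3s cells (adjusted p = 3.67e-06), whereas in 30s cells it dropped by 0.70 (adjusted p = 0.00663), and Irf4 rose by 0.56 in 3s cells. Pax5, a B cell factor that takes part in contraction of the locus, was higher in 3s cells by 0.74 and did not pass the test after IFNβ, and Wapl, which releases cohesin, was lower in 3s cells (-0.83). Whether any of these genes has a part in the readings of the V genes was not tested.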

How the data were processed

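RNA of 12 cultures was measured on Affymetrix MTA 1.0 arrays. The authors deposited log2 values from RMA, a method that removes background, sets the arrays to 1 distribution and combines the probes of each set, which can shrink large differences. The processing notes name Affymetrix Expression Console 1.4. The annotation's genome build was not named, so no coordinates are given. Of 72688 probe sets, 6732 are controls, 30638 carry 1 gene symbol and 2176 several. Symbols of 330 probe sets were updated through RefSeq GRCm38.p6, used for names, gene type and order. The members and gene lists were chosen with earlier results of these data known. Groups of 3 were compared in 1 fit of 4 group means with limma 3.58.1 in R 4.3.3 (residual degrees of freedom 8, prior 3.15), two-sided, with Benjamini-Hochberg adjustment over 30098 genes and a threshold of 0.05. The comparison of the lines after IFNβ was added after seeing the data. The leading V gene of a line was the called member with the largest vehicle difference and no overlap of arrays. Named beside it were the 6 largest differences, the 3 brightest probe sets and the 6 most correlated members. Depth has no meaning for arrays, where 3 per group limit the precision. The replicate numbers of the labels did not pair the samples. Alternatives were the arrays fitted, a replicate block, a robust trend, the methods' t-test, 3 scalings, a filter on dim genes (highest group mean at least 6), the choice of probe set and leaving out each array. The test was run on simulated data first. No Ighv sequence was used here.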

Additional observations from a re-analysis of the deposited data

How the results depend on the processing

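The 17 members lower in 3s cells with vehicle were 13 to 21 when each array was left out in turn, and 6 with the methods' t-test, all 6 among the 17. That test gave Ighv1-62-1 an unchanged -0.99 at an adjusted p of 0.0593. The count of 1 member higher in 3s cells, Ighv1-77, became 2 with only the arrays compared, 5 with median centring, 3 with cyclic loess, 3 with quantile normalisation and 0 with dim genes left out, where Ighv1-77 was not tested, and 1 to 3 without single arrays. The added genes included Ighv1-30, Ighv1-66 and the pair Ighv1-62-2 and Ighv1-71. The same-number correlations of deviations were -0.10 to 0.13 in 3s and -0.07 to 0.04 in 30s cells, so the numbers do not pair the samples. With a replicate block, 15 were lower (14 of the 17 among them), 5 were higher, and the difference of the IFNβ effects gave 1 lower, Ighv1-4. The counts of 0 for IFNβ in each line did not move under any alternative run. The 18 members called with vehicle kept their direction in every alternative that tested them. Medians close to 0 did change sign, that of the members' difference of the IFNβ effects from 0.0026 to -0.0015 with median centring, and that of family 2 after IFNβ in 3s cells from 0.0011 to -0.0032 with cyclic loess. Most members read near background, which limits what can be seen of them.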

Other observations

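Several Ighv probe sets lay outside the 113 members. A total of 8 probe sets carry several symbols that include an Ighv gene, among them the pair Ighv5-12 and Ighv5-15 and the pair Ighv9-1 and Ighv9-2. Their differences between the lines ran from -0.37 to 0.31, and their changes after IFNβ from -0.24 to 0.23. In 4 genes an Ighv name arose only through the updated symbols. Of these, Ighv1-74 read between 13.9 and 14.1 on all 12 arrays, with a difference of 0.04 between the lines with vehicle (limma adjusted p = 0.56). On the arrays after IFNβ, Ighv1-74 was called higher in 3s cells, by 0.13 (limma adjusted p = 0.0475). Ighv1-13 was lower in 3s cells by -0.44 (limma adjusted p = 0.00631), and Ighv5-8 and Ighv7-3 were at -0.11 and -0.14 and were not called.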
